A study of Mus musculus with 15 samples.

Results

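The oxidative phosphorylation genes are the subunits of the respiratory chain and of ATP synthase, and they were followed here through the dorsal root ganglia of 15 mice. Members were chosen by name: protein-coding genes whose mouse symbol starts with Nduf, Uqcr, Cox4 to Cox8, Atp5 or mt-, together with Sdha, Sdhb, Sdhc, Sdhd and Cyc1. Pseudogenes were left out, and a member needed at least 10 counts in at least 3 of the 15 libraries. Of 39179 gene rows, 107 matched by name and 105 met the count rule. Just outside it were Cox7b2 with 25 counts over all libraries and Cox8c with 1. Just inside it was Cox8b, with 107 counts and 4 libraries at 10 or more. Of the 105 members, 92 are encoded in the nucleus and 13 in mitochondrial DNA. Grouped by symbol alone, the nuclear ones comprise 38 Nduf genes counted with complex I, 4 genes of complex II, 9 of complex III and 16 of complex IV. A further 17 Atp5 genes are counted with complex V, and 8 are assembly factors of complex I (Ndufaf genes). All 105 also passed the filter of the statistical fit, which tested 16976 genes, and 99 had at least 10 counts in every library.

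Complexes I to IV pass electrons from NADH and succinate to oxygen, and complexes I, III and IV pump protons across the inner mitochondrial membrane. Complex V, the ATP synthase, uses the returning protons to make ATP. Complexes I, III, IV and V are assembled from parts made in the cytosol and parts made inside the mitochondrion, so their supply depends on transcripts from both genomes, whereas complex II is entirely nuclear. Sensory neurons of the ganglia have long axons and draw heavily on this ATP.

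Each library came from the bulk lumbar 4 to 6 ganglia of 1 mouse aged 3 to 6 months, on a mixed background that is mostly C57bl6. The naive controls were 4 Wnt1-Cre mice (replicates 1, 2, 3 and 6) and 1 wild-type mouse (7). The naive knockouts were 4 Wnt1-Cre; mirflox/flox mice (4, 5, 8 and 9), in which Cre removes a microRNA cluster (miR-182, miR-96, miR-183). Spared nerve injury (SNI), in which 2 of the 3 branches of the sciatic nerve are tied and cut and the sural branch is spared, was done in 3 controls (15, Wnt1-Cre; 18 and 23, wild type) and 3 knockouts (13, 19 and 21). Wnt1-Cre acts in the neural crest lineage, which gives the neurons and glia of the ganglia, so vessels, blood cells and any attached muscle keep the cluster. The time between injury and collection is not given in the sources used here. Animal numbers run from 948 to 956 in injured knockouts, from 974 to 976 in injured controls and from 1041 to 1082 in naive mice, so neither injury nor, among injured mice, genotype can be told apart from whatever else those numbers stand for.

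Libraries held 5252920 to 10822762 counts, and all but injured control 23 held at least 7589426. All 12 sensory neuron markers had counts in every library. The 3 microRNA hairpins had at most 1 count in any library, so the deletion itself could not be read from these data. Injured control 23 stood apart. It had the fewest counts, 6.94% of them in mt- protein-coding genes against 2.18 to 3.50% in the other 14 libraries, and 0.746% in cytosolic ribosomal protein genes against at most 0.384%. Results that rest on it are given with and without it. In bulk tissue, fewer cells of a type and less RNA per cell cannot be told apart.

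Members were searched for matches to the seeds of the deleted microRNAs, since a 3′ UTR that pairs with a seed can be repressed by it. The mature forms, from RefSeq, are shown 5′ to 3′ with the seed (bases 2 to 8) in capitals.
miR-182-5p: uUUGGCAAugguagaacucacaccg
miR-96-5p: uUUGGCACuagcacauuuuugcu
miR-183-5p: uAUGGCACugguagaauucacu
An 8mer site pairs with the seed and adds an A opposite base 1, and it reads TTGCCAAA, GTGCCAAA and GTGCCATA for the 3 microRNAs. Of the 92 nuclear members, 1 (1.09%) held such a site in the 3′ UTR of its main GENCODE transcript, against 8.61% of the 14322 tested genes with an annotated 3′ UTR. These shares are not matched for 3′ UTR length. Main transcripts of 2000 bases or more were found in 9 of the 92 nuclear members and in 10749 of 14400 other protein-coding genes. The member with a site is Ndufb2, an accessory subunit of complex I on chromosome 6 (39592574 to 39603382, plus strand, GRCm38). Its 4012-base 3′ UTR has 2 sites for miR-182-5p, with the 8mer in capitals.
Ndufb2 site at UTR base 82: attaaagtggcTTGCCAAAaacgaggaact
Ndufb2 site at UTR base 2049: gggttggaaatTTGCCAAAttcttcctgtt
The site at base 82 lies in both annotated coding transcripts of Ndufb2 (4371 and 455 bases), and the site at base 2049 only in the long one.

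Promoters of nuclear members are known to be bound by NRF1, by the ETS factor GABPA and by YY1. RefSeq promoter windows (GRCm38.p6, 250 bases before to 50 after the start) were found for 73 of the 92. On either strand, the NRF1 core GCATGCGC was in 16.4% of these windows against 3.9% of 17492 protein-coding genes, the ETS core CCGGAAG in 24.7% against 12.9%, and the YY1 core AAGATGGC in 13.7% against 3.6%. At least 1 of the 3 was in 45.2% against 18.7%. A match is a description of letters, not a bound site. Windows of 3 members are printed with matches in capitals. Atp5k, a subunit of ATP synthase, has a palindromic NRF1 core and an ETS core. Uqcrh, the hinge subunit of complex III, has an ETS core, and Ndufa3, an accessory subunit of complex I, a YY1 core. Their p values were small for injury in knockouts with the injured control that stood apart left out of the fit. With that library kept, edgeR called none of the 3. They are printed as examples of a match, and windows of other members with small p values are not shown. A link between matches and the response to injury was not tested. The ETS cores lie on the opposite strand and therefore read CTTCCGG.
Atp5k, chr5:108434350-108434649, minus strand: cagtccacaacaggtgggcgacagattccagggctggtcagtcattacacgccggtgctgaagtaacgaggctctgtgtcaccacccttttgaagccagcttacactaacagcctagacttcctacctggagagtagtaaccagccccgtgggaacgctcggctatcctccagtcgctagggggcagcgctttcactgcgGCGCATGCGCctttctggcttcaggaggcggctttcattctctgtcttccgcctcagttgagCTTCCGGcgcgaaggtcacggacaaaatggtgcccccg
Uqcrh, chr4:116075021-116075320, minus strand: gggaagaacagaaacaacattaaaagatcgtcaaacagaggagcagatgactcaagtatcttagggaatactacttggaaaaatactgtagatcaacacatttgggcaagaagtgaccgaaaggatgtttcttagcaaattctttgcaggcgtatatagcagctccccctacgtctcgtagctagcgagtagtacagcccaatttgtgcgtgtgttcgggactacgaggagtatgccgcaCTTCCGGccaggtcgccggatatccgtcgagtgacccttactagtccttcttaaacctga
Ndufa3, chr7:3617123-3617422, plus strand: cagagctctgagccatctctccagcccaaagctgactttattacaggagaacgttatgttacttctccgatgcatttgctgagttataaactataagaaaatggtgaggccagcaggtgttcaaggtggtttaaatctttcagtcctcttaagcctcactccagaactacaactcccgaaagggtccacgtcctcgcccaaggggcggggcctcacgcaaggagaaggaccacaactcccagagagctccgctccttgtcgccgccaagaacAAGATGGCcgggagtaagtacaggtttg

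The mt- members fell into 2 ranges of level. A set of 7, mt-Nd1, mt-Nd2, mt-Co1, mt-Nd4, mt-Nd5, mt-Nd6 and mt-Cytb, had medians of 905 to 11232 CPM (counts scaled to a common library size, with TMM factors). mt-Co1, the catalytic core of complex IV, was the highest, and per kilobase of transcript it reached 7269.8 CPM against 1744 for mt-Nd6 and 551 for Ndufa4, the highest nuclear member. The other 6, mt-Co2, mt-Atp8, mt-Atp6, mt-Co3, mt-Nd3 and mt-Nd4l, encode subunits of the same complexes but had only 0.379 to 105 CPM in any library. These 6 are neighbours on the mitochondrial map, between mt-Co1 and mt-Nd4. A stretch of chromosome 1 (24611535 to 24616197, minus strand) carries annotated copies of 5 of them that are 99.71 to 100% identical, and no annotated copy covers mt-Atp8. Parts of mt-Nd4 (876 of 876 bases identical) and mt-Co1 (486 of 492) are copied there as well. The only difference in mt-Nd3 from its copy Gm28438 is T3C, counted from the first base of the annotated mt-Nd3 gene, and the opening bases of both are shown with the differing base in capitals.
mt-Nd3: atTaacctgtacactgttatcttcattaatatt
Gm28438: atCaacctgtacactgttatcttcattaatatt
How reads with several matching places were counted is not given in the sources used here, so the levels of mt-Co2, mt-Atp6, mt-Co3, mt-Nd3 and mt-Nd4l are uncertain, as are, in part, those of mt-Nd4 (62.2% of its 50-base words shared with other annotated genes) and mt-Co1 (51.1%). mt-Atp8 shared no word, but only annotated transcripts were searched. It lies between mt-Co2 and mt-Atp6, whose copies also follow each other on chromosome 1 (24614885 to 24615565 and 24613974 to 24614651). The bases between those copies were not compared, so the level of mt-Atp8 is uncertain too. It was as low as its neighbours, and the cause was not tested. Shared sequence makes the levels of several nuclear members uncertain as well. Over 50-base words of the main transcript, Atp5g2 shared 87.4% with other annotated genes, Atp5l 84.8% and Cox7c 53.0%, while 48 of the 105 members shared none.

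**Figure D1:**
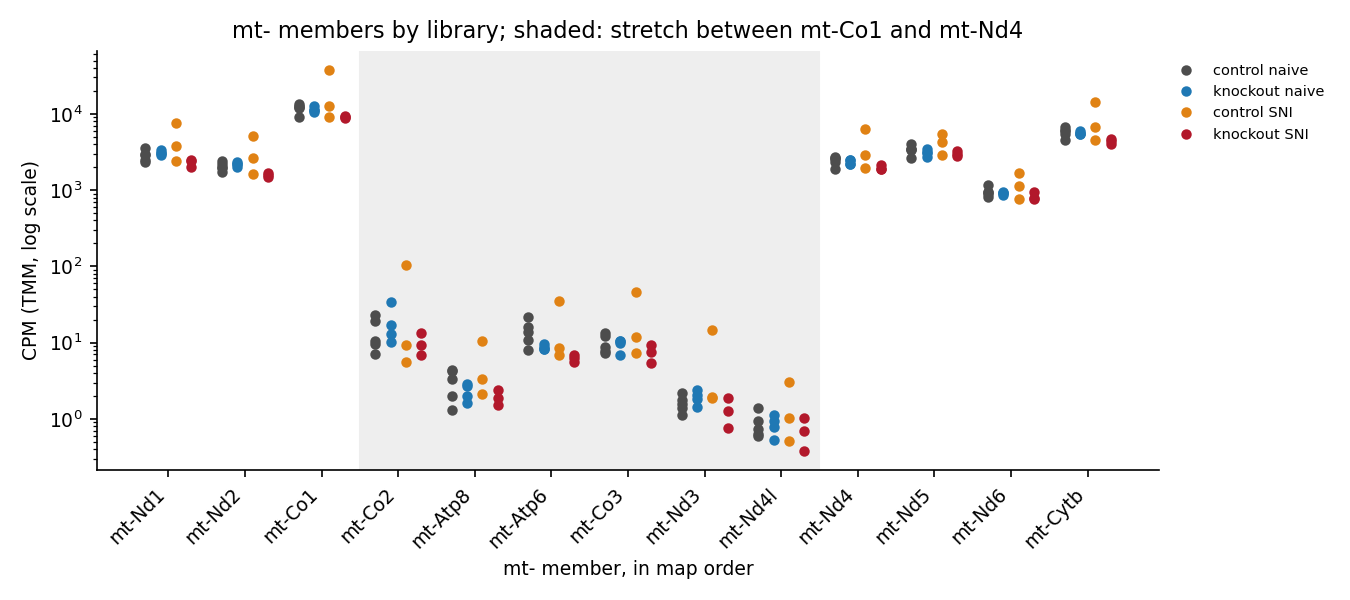
CPM of the 13 mt- members in every library on a log axis, in map order, with points coloured by group and the stretch between mt-Co1 and mt-Nd4 shaded. The 6 shaded genes lie between 0.379 and 105 CPM, while the other 7 lie at 765 CPM or more in all 15 libraries.

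Summed over the 92 nuclear members, naive controls had 9871, 10316, 10190.5, 9038 and 10101 CPM, and naive knockouts 10049, 10439, 10544 and 10886. Injured knockouts had 8554, 7998 and 8529.7 CPM. Injured controls 15 and 18 had 8638 and 8753 CPM, and injured control 23 had 20355. All 3 injured knockouts and injured controls 15 and 18 thus lay below every naive library, and library 23 lay far above. The mt- sum followed the nuclear sum less closely: 29889, 34084, 30815, 23177 and 28731 CPM in naive controls, 27849, 31108, 28235 and 27218 in naive knockouts, and 23376, 22304 and 24156 in injured knockouts. Injured controls 15, 18 and 23 had mt- sums of 23363, 33958 and 78626 CPM, so library 18 was low for nuclear members and at the top of the naive range for mt- members. The ratio of mt- to nuclear CPM was 2.95 ± 0.272 (SD, n = 5) in naive controls, 2.73 ± 0.20 (n = 4) in naive knockouts and 2.78 ± 0.0497 (n = 3) in injured knockouts. It was 2.70, 3.88 and 3.86 in injured controls 15, 18 and 23.

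**Figure D2:**
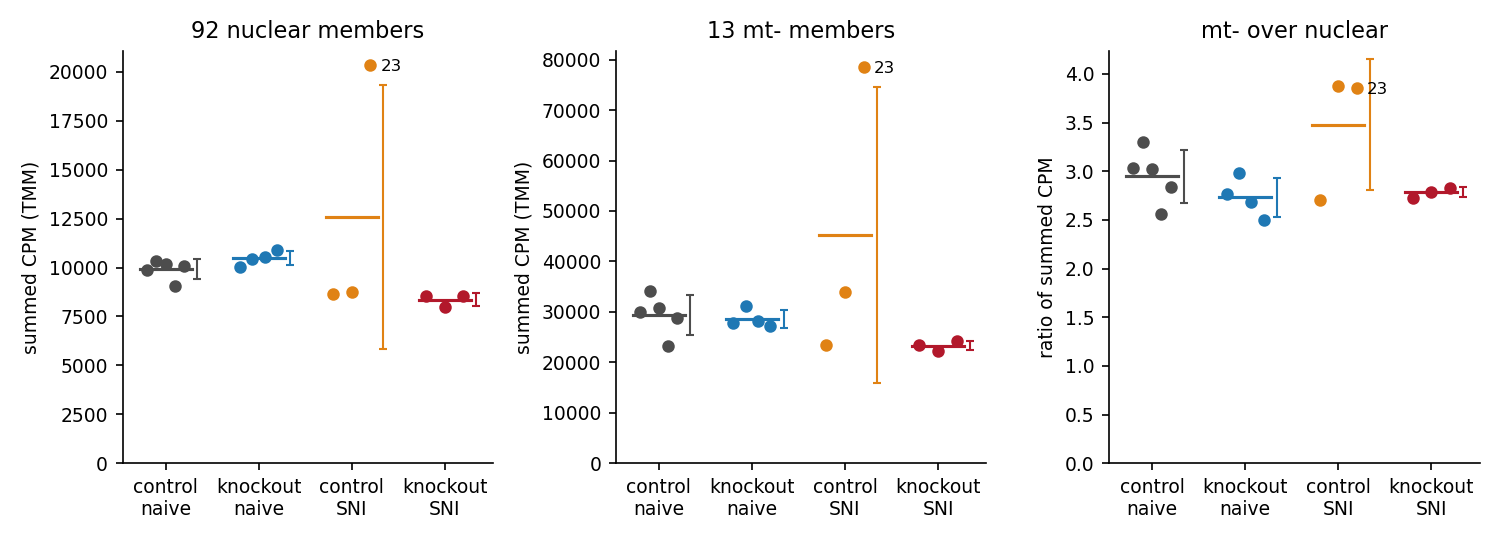
Summed CPM of the nuclear members, summed CPM of the mt- members and their ratio, 1 point per library, with a line at the group mean and a bar of 1 SD. Library 23 is marked: it holds 20355 nuclear CPM against 7998 to 10886 in the other 14 libraries.

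Naive knockouts set against naive controls ask what loss of the cluster does to these genes without injury. No member was called (adjusted p under 0.05, edgeR quasi-likelihood test) in the fit on 15 libraries, against 1.89% of all genes tested. At an unadjusted p under 0.05 there were 2 nuclear and 0 mt- members. DESeq2 called 1 nuclear member and limma-voom 0. The nuclear members were on balance slightly higher in knockouts, 79 of 92 with a median log2 fold change of 0.10 against 0.001 over all genes, and the mt- members were not, with 5 of 13 higher and a median of -0.05. Other protein-coding genes with short transcripts were higher too. Their medians were 0.084 under 700 bases, 0.095 from 700 to under 1000 and 0.055 from 1000 to under 2000. Nuclear members had 0.134, 0.103 and 0.073 in the same order. At 2000 bases or more the medians were -0.019 for other genes and 0.053 for nuclear members. In 6 nuclear members (6.52%) every knockout lay above every control, near the 4.87% of all genes.

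The smallest p belonged to Ndufb2, the member with the miR-182-5p sites. It had 17.9, 17.9, 17.7, 17.6 and 16.2 CPM in naive controls and 24.9, 21.7, 22.6 and 26.0 in naive knockouts. The groups did not overlap, and the log2 fold change was 0.45 (SE 0.115, edgeR adjusted p = 0.0584). Without injured control 23, which takes no part in this contrast but widens the shared estimate of spread, Ndufb2 rose by 0.44 (SE 0.0964, adjusted p = 0.0117). Ndufb2 lies 9.42 Mb from the cluster on the same chromosome, in mice of mixed background, and the part of linked alleles in its difference was not tested. After injury the 2 genotypes overlapped for this gene: 16.4, 20.9 and 24.8 CPM in controls 15, 18 and 23, and 20.3, 17.1 and 15.5 in knockouts.

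Sdhc, which anchors complex II in the membrane, was the other. It had 51.5, 51.8, 47.0, 62.2 and 67.5 CPM in naive controls, the last in the wild-type mouse, and 78.6, 78.9, 83.9 and 86.2 in naive knockouts. The log2 fold change was 0.55 (SE 0.159, adjusted p = 0.106), and 0.54 (SE 0.123, adjusted p = 0.0192) without library 23. Among the injured controls the Wnt1-Cre mouse had 52.5 CPM and the wild-type mice 78.9 and 107, the last in library 23. Wild-type mice were thus the highest controls in both conditions. The naive Wnt1-Cre control at 62.2 CPM lay near the wild-type mouse and has the neighbouring animal number, while the other naive Wnt1-Cre controls had 47.0 to 51.8. The naive knockouts, all Cre carriers, lay above every naive control. The parts of Cre carriage and of animal number were not tested. Sdha and Sdhb, the catalytic subunits of the same complex, were not called, with log2 fold changes of -0.001 and 0.07. Without library 23 these 2 members were the only ones called, both higher, where 2.16% of all genes were called higher. The next smallest p values in the 15-library fit belonged to Cox8b, a muscle isoform, and mt-Atp6, one of the 6 low mt- genes (log2 1.97 and -0.69, adjusted p = 0.521 and 0.601).

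Injury in controls gave opposite pictures with and without library 23. On all 15 libraries no member was called, against 2.48% of all genes, with 17 nuclear and 7 mt- members at an unadjusted p under 0.05. DESeq2 called 0 nuclear members and 1 mt- member, and limma-voom called none. Leaving out injured control 15 instead, which leaves 18 and 23, gave 10 nuclear and 9 mt- members higher, and leaving out 18 gave 0 and 1. The share of all genes at an unadjusted p, or with control 15 or 18 left out, is not given here. Such counts cannot be read as particular to the members. On all 15 libraries the medians were above 0: 0.41 for nuclear members, 84 of 92 higher, and 0.63 for mt- members, 13 of 13 higher, against 0.02 over all genes. The 4 smallest p values were those of mt-Nd3 (log2 1.78, adjusted p = 0.134), Sdhc (0.49, 0.178), mt-Nd1 (0.70, 0.203) and Ndufa12 (1.07, 0.211). Without library 23 the nuclear median was -0.19 with 77 of 92 lower, and the mt- median -0.03 with 8 of 13 lower.

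In that fit 12 nuclear members fell, against 1.26% of all genes called lower, and no mt- member was called, with 1 at an unadjusted p under 0.05. The 12 were 7 complex I subunits, 2 of its assembly factors, 1 complex IV and 2 complex V subunits. Ndufs8, a core subunit of complex I that carries iron-sulfur clusters, had 93.8, 92.9, 90.8, 92.1 and 96.1 CPM in naive controls, 69.5 and 68.1 in injured controls 15 and 18, and 171 in library 23. Libraries 15 and 18 lay below every naive control, and the log2 fold change without 23 was -0.43 (SE 0.077, edgeR adjusted p = 0.00223). Ndufa10, an accessory subunit of complex I, fell by 0.41 with the same adjusted p, and Ndufaf2, an assembly factor of complex I, fell by 0.63 (adjusted p = 0.00664). Ndufb6, Ndufb10, Ndufb3 and Ndufv3 of complex I, and Atp5o, the stalk subunit of ATP synthase which shares 50.3% of its 50-base words with other annotated genes, fell by 0.34 to 0.43. In 31 nuclear members (33.7%) and 0 mt- members, libraries 15 and 18 both lay below all 5 naive controls, against 10.6% of all genes. These values rest on 2 injured controls, of which 15 carried Wnt1-Cre and 18 did not.

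Library 23 exceeded the mean of libraries 15 and 18 in 89 of 92 nuclear members, with a median log2 difference of 1.36, and in 13 of 13 mt- members, with a median of 1.76. Over all 16976 genes the median was -0.05. Relative to the mean of naive controls, library 23 had medians of 1.18, 0.90, 1.47, 1.34 and 1.26 for complexes I to V and 0.80 for the assembly factors. The difference from libraries 15 and 18 was smaller for the 9 members with transcripts of 2000 bases or more, from -0.11 for Sdha to 0.89 for Atp5g1, with 0.82 for Ndufaf4 and 0.74 for Sdhc. Atp5b, the catalytic subunit of ATP synthase, had a mean of 1020.2 CPM in libraries 15 and 18 and 1156 in library 23. Cytosolic ribosomal protein genes summed to 8438 CPM in that library against 2611 to 3801 in the others. What sets library 23 apart was not tested.

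Injury in knockouts was the comparison with the most calls. In the fit on 15 libraries 2 nuclear members fell, against 2.94% of all genes called lower, and no mt- member was called. They were Atp5s, also called Dmac2l (log2 -0.55, SE 0.162, edgeR adjusted p = 0.0403), and Ndufb2 (-0.43, SE 0.132, adjusted p = 0.0478). Ndufaf2 (-0.82, adjusted p = 0.0682) and Ndufaf3 (-0.63, adjusted p = 0.0778), both assembly factors of complex I, came next. Both calls lay near the threshold: without any 1 of naive knockouts 5, 8 and 9 or injured knockouts 19 and 21 neither member was called, and without naive knockout 4 only Atp5s was. With 1 library left out, log2 fold changes ran from -0.66 to -0.47 for Atp5s and from -0.54 to -0.35 for Ndufb2. Despite the few calls, fold changes across the members were shifted: 87 of 92 nuclear members were lower, with a median of -0.44, and 13 of 13 mt- members, with a median of -0.36, against -0.02 over all genes. Without library 23, which is in neither group, fold changes barely moved and 64 nuclear members fell, with a median of -0.42, against 11.3% of all genes called lower. Of the mt- members 1 fell, mt-Nd2, and 4 had an unadjusted p under 0.05.

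The 70 nuclear members (76.1%) and 6 mt- members in which all 3 injured knockouts lay below all 4 naive knockouts do not depend on the fit, and compare with 17.6% of all genes. Uqcrh had 192, 212, 202 and 229 CPM in naive knockouts and 132, 109 and 122 in injured ones. The injured libraries were all lower, and without library 23 the log2 fold change was -0.77 (SE 0.0885, adjusted p = 1.03e-05; 0.20 with library 23 in the fit). Cox7b, a small subunit of complex IV, had 146, 161, 150 and 140 CPM before and 99.3, 79.4 and 97.0 after injury. It fell by 0.68 without library 23, as did Ndufa5 and Ndufa3 of complex I. Ndufaf2 fell by 0.80, Atp5k by 0.55, and Ndufb5 and Ndufb6 by 0.56 and 0.52. All 8 had an adjusted p of at most 0.000224 without library 23 and from 0.0682 to 0.395 with it.

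By complex, as grouped by symbol, Ndufa4 and Ndufa4l2 are counted with complex I and Atp5s with complex V. Of the 38 genes of complex I, 30 fell without library 23, with a median log2 fold change of -0.47. So did 7 of 9 of complex III (-0.37), 10 of 16 of complex IV (-0.37), 12 of 17 of complex V (-0.36) and 4 of 8 assembly factors (-0.26). Of complex II 1 of 4 fell (-0.16), Sdhd, the small membrane anchor (-0.44). The subunits listed as core members were divided. Ndufs8 (-0.44), Ndufs1 (-0.25), Ndufs7 (-0.28), Uqcrfs1, the Rieske protein of complex III (-0.27), and Cox4i1 of complex IV (-0.38) fell. Ndufv1, Sdha, Sdhb, Cyc1, Cox5a, Atp5a1 and Atp5b were not called, with values from -0.22 for Cox5a to -0.04 for Atp5b, and Uqcrc1 had a positive value of 0.21 (adjusted p = 0.0975). Atp5b, at 1046 ± 39.0 CPM (SD, n = 4) in naive knockouts, had a log2 fold change of -0.04 (SE 0.064, edgeR adjusted p = 0.69) without library 23.

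Among the 7 mt- members with high levels, mt-Nd2 had 1988, 2339, 2183 and 2221 CPM in naive knockouts and 1598, 1505 and 1687 in injured ones, without overlap. It fell by 0.43 without library 23 (adjusted p = 0.0191), and had an adjusted p of 0.28 with it. mt-Nd1 (-0.42, adjusted p = 0.0519), mt-Cytb (-0.34, 0.0515) and mt-Co1 (-0.29, 0.0839) were not called. mt-Nd4, mt-Nd6 and mt-Nd5 had values of -0.23, -0.10 and -0.02. The median of these 7 was -0.29 and that of the 6 low ones -0.40.

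All 12 nuclear members that fell after injury in controls without library 23 also fell in knockouts, which is 100% of the 12 and 18.8% of the 64. As 64 of all 92 nuclear members fell in knockouts, most of any 12 would be likely to be among them. The overlap was not counted over all genes. The 2 comparisons share no library, but they come from the same fit with a shared estimate of spread. A lower count in controls does not show a weaker effect, as only 2 injured controls remained, and the difference of the injury effects called no member. It called 0% of all genes with library 23, when 56 nuclear and 6 mt- members had an unadjusted p under 0.05, and 0.00581% without it (1 gene), when 25 and 2 did. DESeq2 and limma-voom called no member with library 23 either, while leaving out injured control 15 gave 28 nuclear and 7 mt- members lower. At an unadjusted p, and without control 15, the share of all genes is not given here. Those counts therefore cannot be read as particular to the members. The median difference, knockout minus control, was -0.79 for nuclear and -0.93 for mt- members with library 23 and -0.21 and -0.16 without it. The 4 smallest p values were those of Ndufb2 (-0.66), Cox5b (-1.09), mt-Nd1 (-1.13) and Ndufaf4 (-0.66), each at an adjusted p of 0.365.

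**Figure D3:**
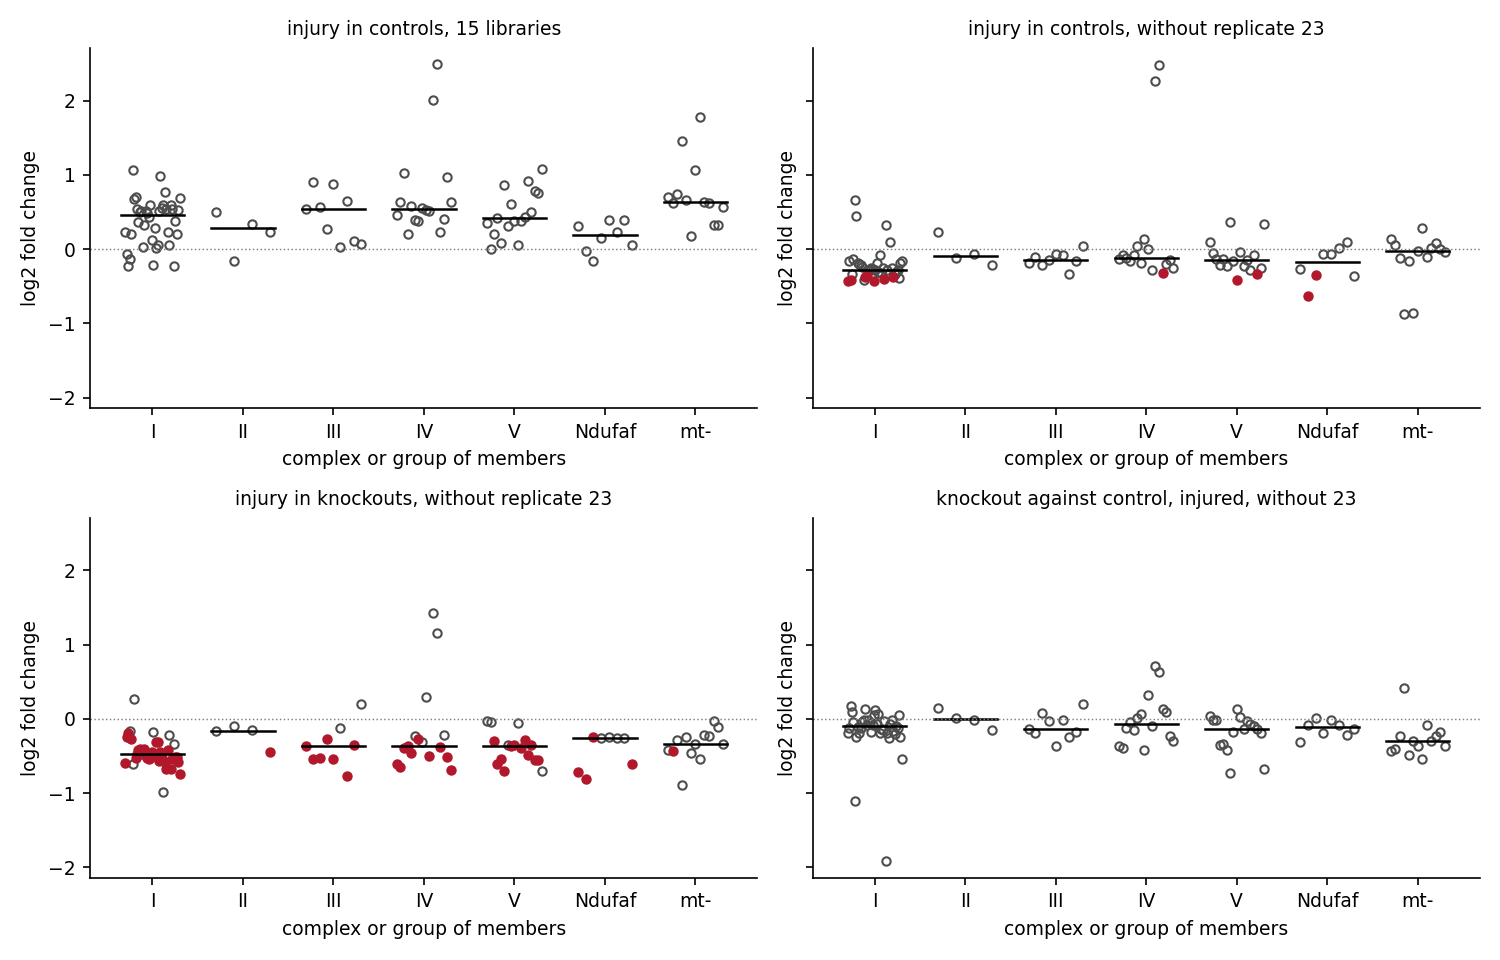
Log2 fold change of each member by complex, with a line at the median and filled points for an adjusted p under 0.05. Injury in controls is centred above 0 with library 23 (nuclear median 0.41) and below 0 without it (-0.19), injury in knockouts is centred at -0.42, and knockout against control after injury without library 23 at -0.09.

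Knockout against control after injury asks whether the genotypes differ once the nerve is cut. edgeR called no member, with library 23 (1.04% of all genes called) or without it (0.738%). With library 23, 60 nuclear and 11 mt- members had an unadjusted p under 0.05, DESeq2 called 19 nuclear and 6 mt- members lower, and limma-voom none. With library 23 kept, leaving out injured control 15 gave 61 nuclear and 11 mt- members lower, and leaving out injured control 18 gave 11 and 1. The medians were -0.70 for nuclear and -1.0 for mt- members. Without library 23 they were -0.09 and -0.29, and 14 nuclear and 3 mt- members had an unadjusted p under 0.05. For the counts at an unadjusted p, with DESeq2 and without control 15 or 18, the share of all genes is not given here. Those counts therefore cannot be read as particular to the members. Ndufa1, a small subunit of complex I encoded on the X chromosome, had the smallest p in both fits. It had 31.2, 31.6 and 112 CPM in controls 15, 18 and 23 and 24.0, 19.5 and 20.9 in knockouts. The groups did not overlap, and the log2 fold change was -1.40 (SE 0.382, adjusted p = 0.0971) with library 23 and -0.54 (SE 0.139, adjusted p = 0.0808) without it. The next were mt-Nd2 (-0.98, adjusted p = 0.105), Cox5b (-0.97, 0.105) and mt-Nd1 (-1.0, 0.107). In 21 nuclear members (22.8%) all injured knockouts lay below all injured controls, with or without library 23, against 8.19% and 12.8% of all genes.

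Transcript length went with these differences across the members. In library 23 the 33 nuclear members with main transcripts under 700 bases lay a median of 1.53 above the mean of naive controls on the log2 scale, and the 9 members of 2000 bases or more 0.23. Other protein-coding genes showed the same order, 1.2 for 231 genes under 700 bases and -0.14 for 10749 of 2000 bases or more. For injury in knockouts without library 23 the member medians were -0.52 under 700 bases, -0.40 from 700 to under 1000, -0.35 from 1000 to under 2000 and -0.25 above, and those of other protein-coding genes -0.33, -0.31, -0.15 and 0.06. Members were thus lower than other genes of their length in each class, and the genes of the shorter classes were lower as a whole. For injury in controls without library 23 the member medians were -0.21, -0.22, -0.21 and -0.12 in the same order, and those of other genes -0.15, -0.17, -0.09 and 0.03. Spearman's rho between mRNA length and fold change over the 92 nuclear members was 0.42 for injury in knockouts and 0.08 for injury in controls, both without library 23, and -0.61 between length and the excess of library 23. These are descriptions across genes of the same libraries, which are not independent replicates. The length used for Ndufb2 is that of its longer transcript.

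**Figure D4:**
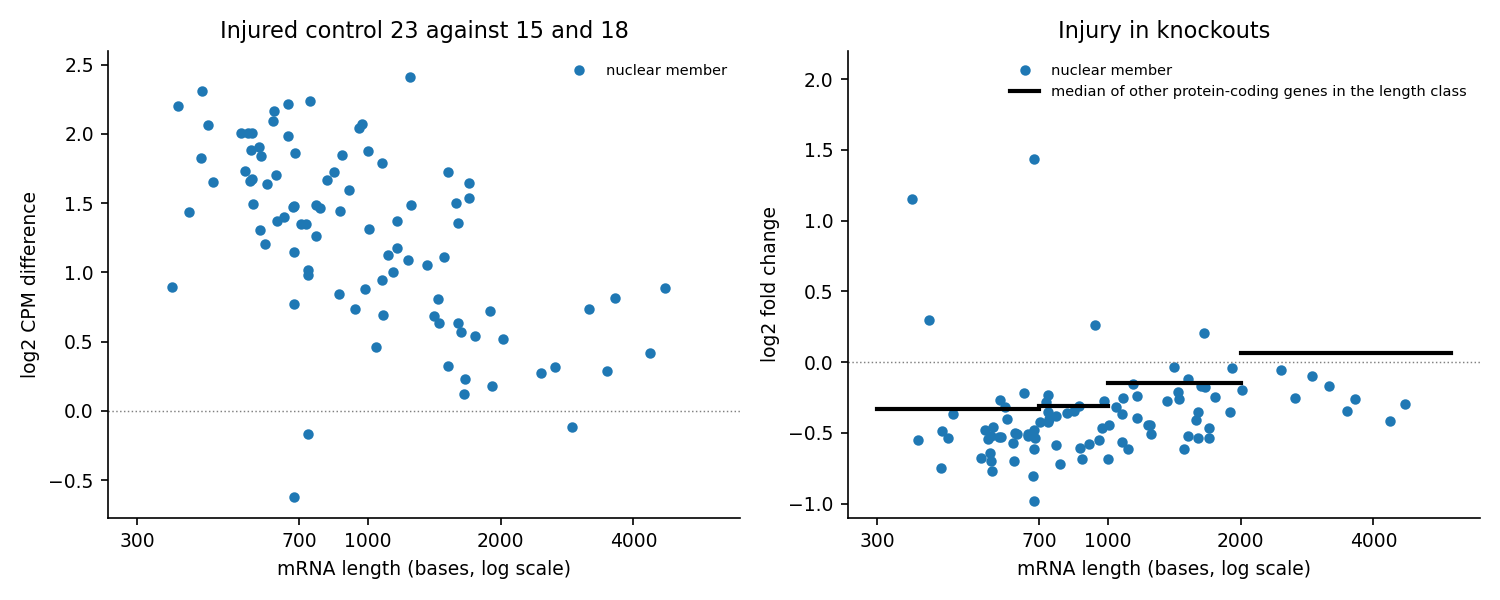
Transcript length on a log axis against the log2 CPM excess of injured control 23 over controls 15 and 18 (left) and against the log2 fold change of injury in knockouts without library 23 (right), 1 point per nuclear member. Short transcripts lie highest on the left and mostly below 0 on the right, where the black lines give the medians of other protein-coding genes per length class, from -0.33 to 0.06.

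Paired isoforms of complex IV were dominated by the general form. Per kilobase, median levels were 430 CPM for Cox4i1 and 1.21 for Cox4i2, the lung form, 339 for Cox6a1 and 1.27 for the heart and muscle form Cox6a2, 377 for Cox6b1 and 4.47 for the testis form Cox6b2, 236 for Cox7a2 and 7.27 for Cox7a1, and 228 for Cox8a and 1.10 for Cox8b. Ndufa4, which bears a complex I name but is now placed in complex IV, had 551 CPM per kilobase and its hypoxia-induced relative Ndufa4l2 had 0.995. Of the 3 genes for the same ATP synthase subunit c, Atp5g3 had 306, Atp5g1 10.7 and Atp5g2 3.16 CPM per kilobase, the last uncertain because of shared sequence. The lengths used were 723, 4715 and 731 bases, and the medians not divided by length were 221, 50.5 and 2.31 CPM. The order was the same, but the gap between Atp5g3 and Atp5g1 depends on the length used. The general forms Cox4i1, Cox6a1, Cox6b1, Cox7a2, Cox8a, Ndufa4, Atp5g1 and Atp5g3, and also Cox7a2l, fell after injury in knockouts without library 23. They fell by 0.26 to 0.57 on the log2 scale. Cox4i2, Cox6b2, Cox7a1, Ndufa4l2 and Atp5g2 were not called, with values from -0.35 to 0.29.

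Cox6a2 and Cox8b, the striated muscle forms, had the largest positive fold changes of the nuclear members after injury, and neither was called in any comparison (log2 1.42 and 1.14 in knockouts, edgeR adjusted p = 0.30 and 0.396). Cox6a2 had 1.28, 0.23, 0.0934, 0.364 and 0.369 CPM in naive controls, 1.52, 0.297, 3.33 and 0.131 in naive knockouts, 0.417, 4.13 and 0.863 in injured controls 15, 18 and 23 and 3.29, 1.04 and 6.8 in injured knockouts. All groups overlapped. The 13 skeletal muscle markers, all detected, summed to 7.47 to 133 CPM in naive controls, 25.7 to 302 in naive knockouts, 8.66, 454 and 16.0 in injured controls 15, 18 and 23, and 933, 199 and 1487 in injured knockouts. The libraries highest for Cox6a2 within a group were also the highest for the muscle markers. What part attached muscle has in these 2 members was not tested.

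Ndufs5, a small subunit of complex I, is named because its values stood out once seen. It had 9.14 to 19 CPM in naive controls, 10.2, 9.52, 1.52 and 9.67 in naive knockouts, 14.2, 15 and 25 in injured controls and 1.52, 1.42 and 8.3 in injured knockouts. Low values of about 1.5 thus occurred in 3 of 7 knockouts and in no control, while the genotypes overlapped in naive mice and not in injured mice, and no comparison called it (adjusted p = 0.763 in naive and 0.116 in injured mice). Its transcript shares 31.1% of its 50-base words with the processed pseudogene BC002163, which had more counts, 50.49 to 175.44 CPM.

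**Figure D5:**
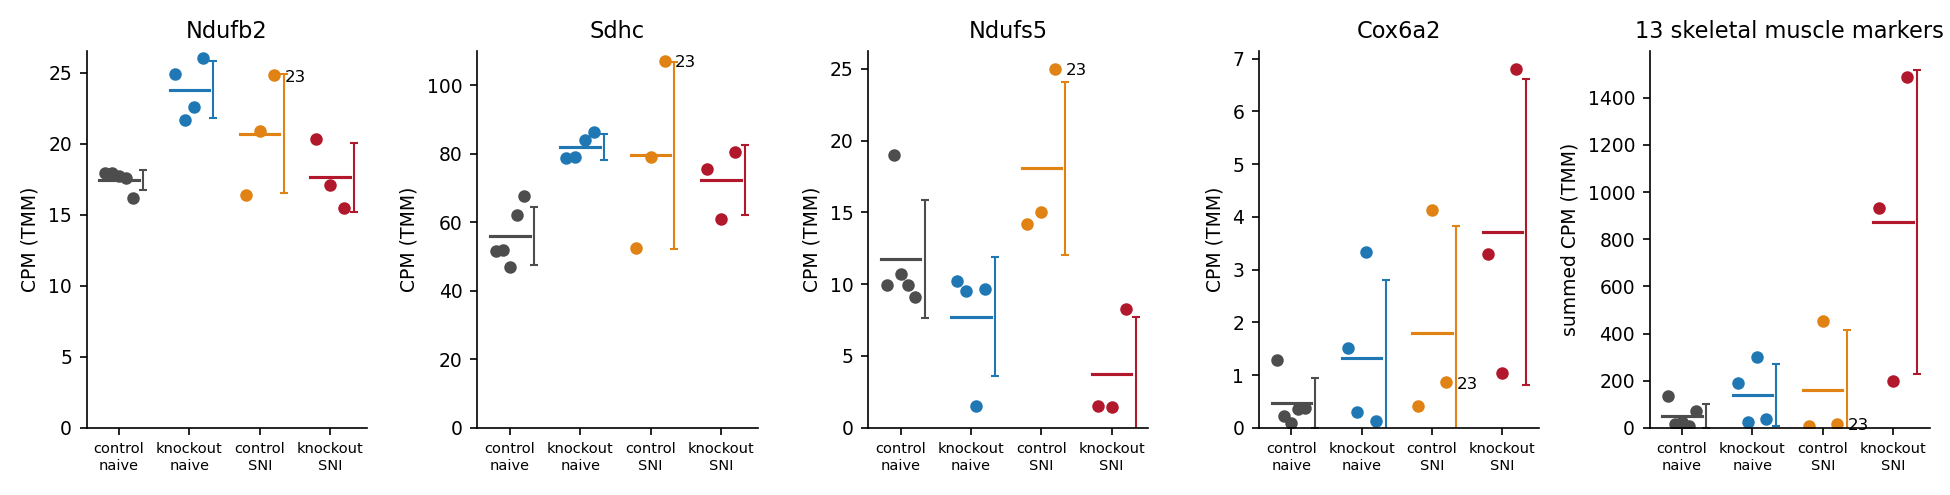
CPM by library of Ndufb2, Sdhc, Ndufs5 and Cox6a2 and the summed CPM of 13 skeletal muscle markers, with group means as lines and bars of 1 SD. Ndufb2 and Sdhc do not overlap between naive controls and naive knockouts, and Cox6a2 is highest in the libraries with high muscle markers.

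Other cell types shifted with injury in knockouts. Over 10 macrophage markers the summed level was 148 to 230 CPM in naive and 259 to 323 in injured knockouts, and over 12 sensory neuron markers 21249.8 to 22925 and 22452 to 24689. The 10 Schwann cell markers summed to 9428 to 10908 and 5782 to 10706 CPM. The 6 endothelial markers summed to 63.0 to 81.1 and 89.9 to 111 CPM, and Flt1 (0.66, edgeR adjusted p = 0.00983) and Cdh5 (0.57, 0.0398) rose. The macrophage and endothelial sums did not overlap between naive and injured knockouts, those of the other 8 marker lists did, and the part of cell makeup in the changes of the members was not tested.

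Genes that work beside the respiratory chain were counted in the same fits. For injury in knockouts 11.3% of all genes were called lower and 14.3% higher without library 23, and 2.94% and 7.17% on 15 libraries. For injury in knockouts without library 23, 47 of 76 mitochondrial ribosomal protein genes fell and 0 rose (median -0.35), as did 29 of 70 cytosolic ribosomal protein genes (-0.31). On 15 libraries 4 and 0 fell in these lists. Of 43 assembly factors outside the member rule 19 fell and 1 rose (median -0.32), against 2 and 0 on 15 libraries. Cox20 (-0.77, adjusted p = 0.00031) and Cox14 (-0.58, 0.000889), which help build complex IV, had the smallest p. Of 28 genes of mitochondrial membrane, carriers and import 10 fell and 1 rose (4 and 1 on 15 libraries), led by Tomm22, part of the outer membrane import gate (-0.40, adjusted p = 0.00286). Of 21 genes of the citric acid cycle and pyruvate dehydrogenase 7 fell and 2 rose (2 and 0 on 15 libraries). Pdhb, a subunit of pyruvate dehydrogenase, fell by 0.43.

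Of 22 glycolysis genes 5 rose and 3 fell without library 23 (3 and 2 on 15 libraries), and the share that fell was near that of all genes. The glucose transporter Slc2a1 rose by 0.71 (SE 0.0734, adjusted p = 2.89e-06) and Hk1, the main brain hexokinase, by 0.46, while Ldhb, which favours pyruvate production, fell by 0.59. Of 16 targets of Atf4 and mitochondrial stress 8 rose and 0 fell (median 0.35), with 4 and 0 on 15 libraries, led by Chac1, a glutathione-degrading enzyme (1.15, adjusted p = 0.000881), and Trib3, a stress pseudokinase (1.03, adjusted p = 0.00575). Of 36 regulators of mitochondrial biogenesis and DNA expression 4 rose and 6 fell, shares near those of all genes, and on 15 libraries 1 rose and 0 fell. Pprc1, a coactivator, rose by 0.46, and Ssbp1, which coats single-stranded mitochondrial DNA, fell by 0.65. In naive knockouts on 15 libraries the same regulators had 0 calls, with 0 at an unadjusted p under 0.05, and the glycolysis genes Eno1 (0.60, adjusted p = 0.0012) and Tpi1 (0.38, adjusted p = 0.036) rose while the glycolytic regulator Pfkfb3 fell by 0.43. Over all genes the median was -0.004 for injury in knockouts without library 23 and 0.001 for naive mice on 15 libraries.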

How the data were processed

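Poly(A) RNA of bulk dorsal root ganglia was sequenced after Trizol extraction with the TruSeq stranded mRNA kit, per the labels' protocols. The authors deposited 1 table of raw read counts per gene for 15 libraries. The submitters' processing notes name HTSeq 0.6.1, TopHat2 2.0.4, DESeq2, Cufflinks and SAMtools, with the GRCm38 build. How strand and reads with several matching places were treated, and which annotation release was used, is not given in the sources used here.

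Groups were taken from the labels, with 1 animal per library. Of 39179 gene rows 27310 had a count, and 16976 passed filterByExpr (minimum count 10). The untested genes hold 0.131% of counts. All 4 groups were fitted together in edgeR 4.0.16 (R 4.3.3) with TMM scaling and quasi-likelihood tests on 11 residual degrees of freedom, and p values were adjusted by Benjamini-Hochberg over all tested genes and called under 0.05. Alternatives were DESeq2 1.42.0, limma-voom (limma 3.58.1) with and without quality weights, other scalings and filters, and leaving out libraries. Leaving library 23 out of comparisons that do not contain it was chosen after seeing the data. Levels are CPM, and transcript lengths are those of GENCODE M21. The fitting script was tested on simulated data.

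Named members were all mt- members, a list of core subunits and isoform pairs, up to 8 called nuclear members with the smallest p per comparison and direction, or the 4 smallest where fewer than 4 were called, and up to 3 genes of each other list. Members and lists were chosen with earlier results of these data known. Ndufs5 was singled out after its values were seen. The result for 1 core subunit is not reported here.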

Additional observations from a re-analysis of the deposited data

Results flagged for a closer look

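Among 71 quantities in the naive groups of 4 and 5 libraries, 142 groups were examined for a library far from the rest, and 17 values stood apart by Dixon's test. Chance alone gives about 1 in 20 groups. Control naive 6 held 7 of them, each the lowest of its group: Atp5mpl 113 CPM, Atp5o 158 CPM, Cox6b1 189 CPM, Cox7b 119 CPM, Ndufa1 28.5 CPM, Ndufa4 280.0 CPM and Uqcr10 66.5 CPM. Control naive 1 was the highest of its group for Cox4i2 at 1.58 CPM and for Cox6a2 at 1.28 CPM. Control naive 2 was the highest for Ndufs5 at 19 CPM. Control naive 7, the wild-type mouse, was the lowest for Ndufb2 at 16.2 CPM and for Uqcrc1 at 156 CPM. Among naive knockouts, library 8 was the highest for Atp5b at 1104 CPM and the lowest for Ndufs5 at 1.52 CPM and mt-Co3 at 6.94 CPM. Library 9 was the highest for Cox4i1 at 426 CPM and library 4 the lowest for Ndufaf3 at 21.8 CPM. No quantity had injury effects of opposite sign in every library of both genotypes.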

How the results depend on the processing

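No paired analysis was possible because no groups compared share replicate numbers. Animal numbers and injury cannot be told apart, the injured control group is 3 libraries of which 1 stands apart, and leaving out the wild-type controls leaves 1 injured control, assumed to vary like the other groups. Library 23 is the shallowest. The cause of the changes between settings was not tested.

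The counts in this section are given without the share of all genes called in each setting. Counts of nuclear members called in naive mice were 1 with DESeq2, 2 with voom quality weights, 2 with wild-type controls left out and 3 with only the groups compared. For injury in controls, quality weights called 3 nuclear members and DESeq2 1 mt- member. The nuclear median was -0.11 with quality weights and -0.24 without wild types, where the mt- median was -0.36. For injury in knockouts, nuclear calls were 1 with RLE size factors, 1 with no filter, 62 with quality weights, 66 without wild types and 65 with only the groups compared, and mt- calls were 3, 4 and 6 under the last 3. Between injured genotypes DESeq2 called 19 nuclear and 6 mt- members, and without wild types the medians were -0.07 and -0.01. For the difference of injury effects the nuclear and mt- medians were -0.32 and -0.45 with quality weights and -0.18 and 0.09 without wild types.

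Leaving out 1 library at a time gave ranges. Nuclear calls ran from 0 to 2 in naive mice, 0 to 12 for injury in controls, 0 to 64 for injury in knockouts, 0 to 61 between injured genotypes and 0 to 28 for the difference. For mt- members they ran from 0 to 9 for injury in controls, 0 to 1 for injury in knockouts, 0 to 11 between injured genotypes and 0 to 7 for the difference. Nuclear medians ran from -0.19 to 0.63 for injury in controls, -0.95 to -0.09 between injured genotypes and -1.05 to -0.21 for the difference. The mt- medians ran from -0.03 to 1.01, -1.31 to -0.29 and -1.33 to -0.16 in the same order.

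Reversals of sign were found for injury in controls. Without wild types they were Sdhc 0.00, mt-Nd1 -0.21, Ndufs8 -0.39, Ndufb6 -0.33, Ndufb10 -0.33, Atp5o -0.17, Ndufb3 -0.42 and Ndufv3 -0.28. With quality weights they were Ndufs8 -0.37, Ndufb6 -0.34, Ndufb10 -0.34, Atp5o -0.47, Ndufb3 -0.33 and Ndufv3 -0.28, and with plain voom Ndufs8 -0.04 and Ndufb10 -0.06. Over single libraries left out, Ndufs8 ran from -0.43 to 0.35, Ndufb6 from -0.41 to 0.89, Ndufb10 from -0.37 to 0.22, Atp5o from -0.42 to 0.71, Ndufb3 from -0.43 to 0.48, Ndufv3 from -0.34 to 0.58 and Ndufaf2 from -0.63 to 0.24. The negative ends of these ranges are without library 23. Ndufaf2 was also 0.00 with RLE and 0.04 with DESeq2. Of 43 named genes and comparisons, 337 of 396 values with a library left out and 268 of 335 under other settings kept their direction and side of the threshold.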
